A study of Arabidopsis thaliana with 20 samples.

Results

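The genes described here are 10 glycine-rich RNA-binding protein genes of Arabidopsis thaliana, chosen by locus identifier out of 33602 genes in the chromatin-bound tables and 33554 in the mRNA table. They are RZ-1A (AT3G26420), RZ-1B (AT1G60650), RZ-1C (AT5G04280), GRP7 (AT2G21660), GRP8 (AT4G39260), GR-RBP2 (AT4G13850), GRP4 (AT3G23830), GR-RBP3 (AT5G61030), GR-RBP5 (AT1G74230) and GR-RBP6 (AT1G18630). AT4G13850 is also called GRP2, a symbol that the RefSeq gene table gives to the cold shock domain gene AT4G38680, so it is written as GR-RBP2.

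Seedlings mutated in both RZ-1B and RZ-1C (rz-1b rz-1c) were compared with Col-0, the wild type, at an age of 10 days, after growth at 22 °C with 16 h of light and 8 h of dark. The labels name no allele for either mutation. Chromatin-bound RNA, the RNA that remains attached to isolated chromatin and so includes nascent transcripts, came from 4 libraries per genotype that share 2 replicate numbers, and the deposited tables hold 1 FPKM column (fragments per kilobase of gene, scaled to the column's total) per number, so n = 2 per genotype. mRNA came from 3 libraries per genotype, of which the authors' deposited table gives 1 value per genotype and a q-value, taken here as FPKM although the file does not write the unit. Among chromatin-bound libraries, those sharing a replicate also share the first digit of the library name. The first 2 mRNA libraries of each genotype share that digit too, so they may come from 1 source, and the q-values would then rest on fewer independent samples than 3. Separate cultures are not stated for the replicates, and the p-values therefore reflect only how far these samples differ among themselves, possibly for technical reasons.

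Glycine-rich RNA-binding proteins join an RNA recognition motif to a flexible tail rich in glycine. In the RZ-1 proteins a zinc knuckle lies between motif and tail, and RZ-1B and RZ-1C are nuclear proteins known to bind SR splicing factors and to act in pre-mRNA splicing. GRP7 and GRP8 are driven by the circadian clock, and GRP7 limits its own and GRP8's mRNA through an alternatively spliced form that is degraded. Several of the others act in mitochondria, where GR-RBP3 and GR-RBP5 take part in RNA editing.

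Relative depth, read from the steps in low FPKM values, was 2.80 and 2.98 in mutant replicates 1 and 2 and 1.51 in wild-type replicate 1, with wild-type replicate 2 set to 1. Total counts are not known. Nuclear rRNA held 31.6% and 34.1% of the FPKM total in the mutant columns, against 53.6% and 60.5% in the wild type. On log2(FPKM + 1) the median change over all genes was 0.27 in favour of the mutant, and the members are set beside that shift further on. The 3 shoot markers summed to 2029.5 and 2222 FPKM in the mutant columns, against 2449 and 1756 FPKM in the wild type, and 1 of them rose. The 3 seed storage markers summed to 56.9 and 75.5 FPKM in the mutant columns, against 2.82 and 0.298 FPKM in the wild type. All 3 rose in chromatin-bound RNA, and their part in the members' results was not tested. In seedlings fewer cells of a type and less RNA per cell cannot be told apart.

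The first comparison was the check of the 2 mutated genes, and they behaved differently in chromatin-bound RNA. RZ-1B read 132 and 143 FPKM in the mutant replicates, against 10.5 and 9.42 FPKM in the wild-type replicates. The mutant columns were both far above the wild-type ones, and RZ-1B was higher by 3.66 on the log2 scale (SE 0.17, 95% confidence interval 3.27 to 4.05, n = 2 per genotype, limma adjusted p = 0.000402). With the tested genes held fixed, an alternative chosen after seeing the data, the RZ-1B call was lost without mutant replicate 1 (change 3.72, limma adjusted p = 0.0637) and without mutant replicate 2 (3.60, adjusted p = 0.0700). The ratio of means was 13.8, and the rise was number 25 in size among 19694 genes tested. A rise goes against what the name of the mutant would give for RZ-1B, but the labels do not say where the gene is mutated, and a whole-gene FPKM cannot show which part of it was read. RZ-1C read 4.59 and 4.27 FPKM in the mutant, against 16.7 and 13.1 FPKM in the wild type. Its groups did not overlap either, and it was lower by a log2 change of -1.54 (SE 0.21, 95% confidence interval -2.02 to -1.05, limma adjusted p = 0.00523). The RZ-1C call was lost without mutant replicate 1 (limma adjusted p = 0.0644) and without mutant replicate 2 (0.0820), and over all alternatives p lay between 0.00125 and 0.118.

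In mRNA both mutated genes fell. RZ-1B mRNA was 2.30 FPKM in the mutant against 15.2 FPKM in the wild type in the authors' deposited table, 6.63-fold lower in the mutant (q = 0.000329). RZ-1C mRNA stood at 2.77 FPKM in the mutant and 31.7 FPKM in the wild type in the authors' deposited table, 11.4-fold lower in the mutant with the same q, which is the smallest in that table and is shared by 3168 genes. RZ-1B was thus called higher in one kind of RNA and lower in the other. Among 18551 genes that passed the chromatin-bound filter and reached 1 FPKM of mRNA in either genotype, 923 (4.98%) were called higher in both and 155 (0.836%) shared the opposite directions of RZ-1B, which had the largest chromatin-bound change on log2(FPKM + 1) and mRNA fall number 4 of those 155. That first place depends on the 1 FPKM added, since with 0.1 FPKM added RZ-1B changed by 3.77 and IRT1, another of these genes, by 6.03. The pair of falls shown by RZ-1C was found for 241 genes (1.30%).

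RZ-1A, which acts in the cold response as an RNA chaperone, is the one RZ-1 gene not named in the mutant. Its chromatin-bound RNA read 2.96 and 5.10 FPKM in the mutant, against 4.02 and 11.1 FPKM in the wild type. The genotypes overlapped, and wild-type replicate 2 stood above all other columns. The change of -0.66 did not pass (95% confidence interval -1.66 to 0.34, limma adjusted p = 0.297), but without wild-type replicate 1 it did (log2 change -1.30, limma adjusted p = 0.0314; adjusted p lay between 0.0314 and 0.957 in all fits tried). RZ-1A mRNA was 8.75 FPKM in the mutant and 7.33 FPKM in the wild type, with q = 0.565 in the authors' deposited table. RZ-1A overlaps its neighbour AT3G26430 in the RefSeq annotation, and the neighbour read 32.5 and 29.1 FPKM in the mutant against 20.9 and 7.48 FPKM in the wild type. Chromatin-bound libraries were stranded, per the labels, but no source used here says whether counting used strand, so reads of overlapping genes may be mixed.

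**Figure D1:**
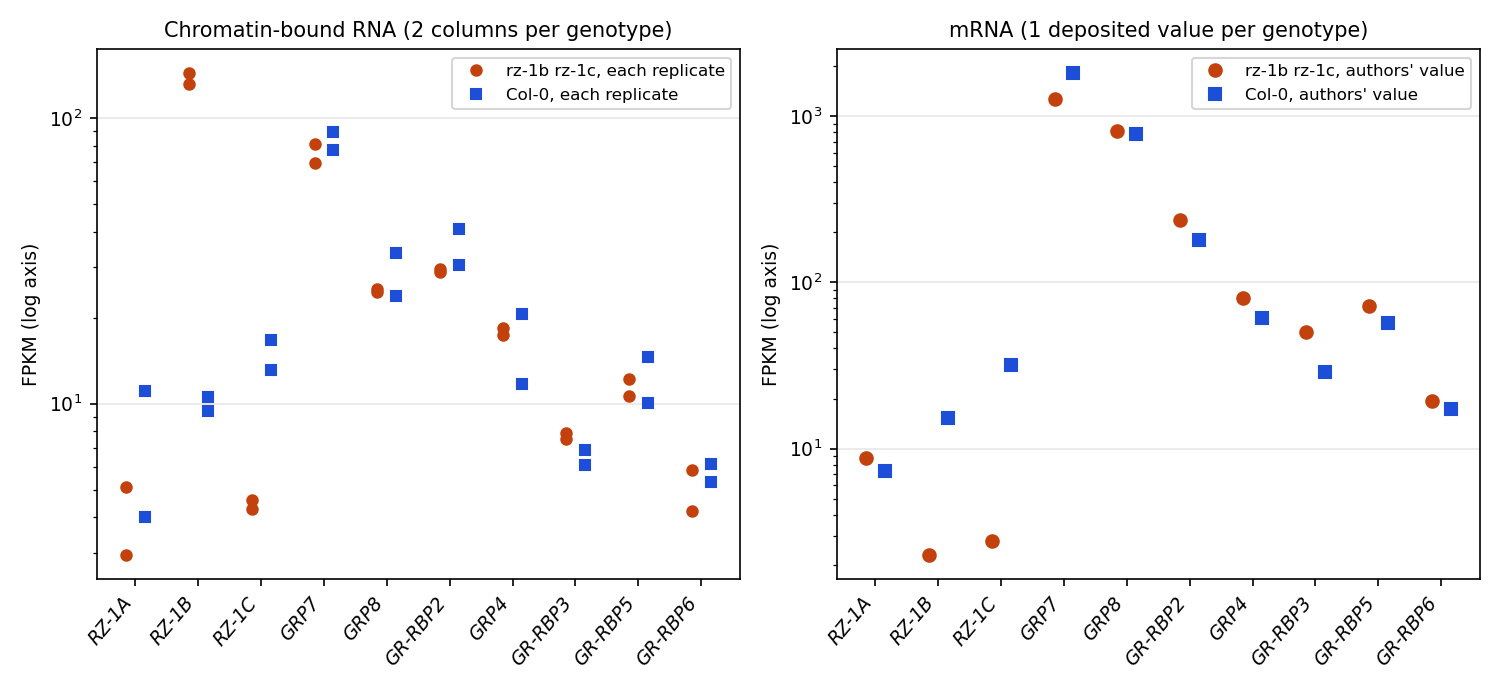
FPKM on a log axis for the 10 genes, with circles for rz-1b rz-1c to the left of squares for Col-0. The left panel shows each of the 2 chromatin-bound replicates per genotype, and the right panel shows the single mRNA value per genotype of the authors' deposited table. RZ-1B is above the wild type in the left panel (132 and 143 against 10.5 and 9.42) and below it in the right (2.30 against 15.2).

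Outside RZ-1B and RZ-1C, limma called 0 of the other 8 members in chromatin-bound RNA. Of these 8, 0 had an unadjusted p under 0.05 by limma, beside 7046 of all 19694 genes tested. Over all 10, the count was 1 higher and 1 lower, where 17.4% of all genes tested were called (13.2% higher and 4.24% lower). All 10 members passed the filter of a mean of at least 1 FPKM. In mRNA the authors' deposited table has 7 of the 10 under a q of 0.05, 4 higher and 3 lower in the mutant. The mutated RZ-1B and RZ-1C are among the lower ones. Of the other 8 members, 4 were higher, 1 was lower and 3 were not called. Both counts are read against 35.0% among the 20361 genes with at least 1 FPKM in either genotype (17.1% higher and 17.9% lower). Among all genes in the table the share was 21.5% (10.5% higher and 11.0% lower). In the same table the seed markers summed to 403 FPKM in the mutant and 7.40 FPKM in the wild type, with 3 of 3 higher, and the root markers to 41.4 FPKM in the mutant and 111 FPKM in the wild type, with 3 of 3 lower. The shoot markers summed to 29909.7 FPKM in the mutant and 37941 FPKM in the wild type in the authors' deposited table, with 1 of 3 lower. The part of these marker changes in the members' mRNA calls was not tested.

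GRP7, which promotes flowering and takes part in immunity besides its role in the clock's output, gave the one fall in mRNA outside the mutated genes. In chromatin-bound RNA it read 69.6 and 81.0 FPKM in the mutant, against 89.4 and 77.0 FPKM in the wild type. The columns overlapped, and the change of -0.14 did not pass (95% confidence interval -0.56 to 0.27, limma adjusted p = 0.591). Its mRNA was 1261 FPKM in the mutant and 1803 FPKM in the wild type in the authors' deposited table, a log2 ratio of -0.52 (q = 0.00385). GRP7 was the highest of the 10 in both genotypes in mRNA, above 99.7% of genes listed over 0 in the mutant and 99.8% in the wild type.

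GRP8, the close relative of GRP7, was called in neither kind of RNA. Its chromatin-bound values were 24.5 and 25.2 FPKM in the mutant, against 33.6 and 23.9 FPKM in the wild type. Both mutant values lay inside the wild-type range (log2 change -0.18, 95% confidence interval -0.66 to 0.30, limma adjusted p = 0.554). GRP8 mRNA was 809 FPKM in the mutant and 784 FPKM in the wild type, with q = 0.847 in the authors' deposited table. The ratio of GRP7 to GRP8, each with 1 FPKM added, was 2.77 and 3.13 in the mutant's chromatin-bound columns and 2.62 and 3.14 in the wild type's. The chromatin-bound ratios overlapped between genotypes, whereas the mRNA ratio from the authors' deposited table was 1.56 in the mutant and 2.30 in the wild type, with no replicate values to test it.

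Core clock genes were read beside GRP7 and GRP8. Of 10 core clock genes, 5 rose and 0 fell in chromatin-bound RNA, where 13.2% of all genes tested were higher and 4.24% lower. Their median change was 0.78 beside 0.27 over all genes. GI, an evening-phased clock protein, read 13.6 and 13.0 FPKM in the mutant against 0.826 and 1.42 FPKM in the wild type (log2 change 2.77, limma adjusted p = 0.00129). PRR7, a repressor of the morning genes, read 14.4 and 9.10 FPKM in the mutant against 0.272 and 1.58 FPKM in the wild type (log2 change 2.78, limma adjusted p = 0.00567). In mRNA the authors' deposited table has 1 of the 10 higher and 5 lower. The shares were 17.1% higher and 17.9% lower among genes with at least 1 FPKM in either genotype. GI, PRR7 and PRR9 were among the lower ones, the same pair of directions as RZ-1B. After either rescaling 3 clock genes were higher and 1 lower in chromatin-bound RNA. Without mutant replicate 1 or without mutant replicate 2, 1 clock gene was called higher in chromatin-bound RNA. The hour of harvest is not given in the labels, and its part in the GRP7 values was not tested.

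Of the remaining 5 genes, 4 were called higher in mRNA, by less than the mutated genes fell. GR-RBP3, the mitochondrial editing factor also named ORRM3, had 49.9 FPKM in the mutant and 28.9 FPKM in the wild type in the authors' deposited table, a log2 ratio of 0.79 (q = 0.000329). Its chromatin-bound values were 7.54 and 7.88 FPKM in the mutant, against 6.11 and 6.86 FPKM in the wild type. The groups did not overlap, as for 65.2% of all genes tested, and the log2 change of 0.22 did not pass (95% confidence interval -0.24 to 0.68, limma adjusted p = 0.448) and took a negative sign after either rescaling. It overlaps its neighbour AT5G61040, which had 7.58 and 6.57 FPKM in the mutant against 3.85 and 4.76 FPKM in the wild type.

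GR-RBP2, a mitochondrial protein with a part in cold tolerance, had 238 FPKM in the mutant and 180.2 FPKM in the wild type in the authors' deposited table, a log2 ratio of 0.40 (q = 0.0147). Chromatin-bound RNA of GR-RBP2 was at 29.5 and 29.0 FPKM in the mutant, against 40.7 and 30.7 FPKM in the wild type. Here the mutant columns lay below both wild-type columns, the reverse of the mRNA direction. Columns that did not overlap, in either direction, were found for 65.2% of all genes tested. The change of -0.27 did not pass (95% confidence interval -0.72 to 0.18, limma adjusted p = 0.352). GRP4, known for effects on germination under salt and dehydration stress, had 80.1 FPKM in mutant mRNA and 61.0 FPKM in wild-type mRNA in the authors' deposited table, a log2 ratio of 0.39 (q = 0.0313). In chromatin-bound RNA GRP4 had 17.4 and 18.5 FPKM in the mutant, against 20.5 and 11.7 FPKM in the wild type. The mutant pair lay inside the wild-type range, with a log2 change of 0.19 (95% confidence interval -0.43 to 0.81, limma adjusted p = 0.631) that turned negative after either rescaling and without wild-type replicate 2.

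GR-RBP5, the editing factor also named ORRM4, had 72.4 FPKM in mutant mRNA and 56.8 FPKM in wild-type mRNA in the authors' deposited table, a log2 ratio of 0.35 that passed narrowly (q = 0.0445). Its chromatin-bound columns overlapped, at 12.2 and 10.6 FPKM in the mutant and 14.5 and 10.0 FPKM in the wild type (log2 change -0.08, 95% confidence interval -0.61 to 0.45, limma adjusted p = 0.822). GR-RBP6, which overlaps its neighbour PSP in the annotation, passed in neither kind of RNA. It read 5.85 and 4.20 FPKM in the mutant's chromatin-bound columns and 5.30 and 6.15 FPKM in the wild type's, also with overlap (log2 change -0.17, 95% confidence interval -0.72 to 0.38, limma adjusted p = 0.629). GR-RBP6 mRNA was 19.4 FPKM in the mutant and 17.3 FPKM in the wild type in the authors' deposited table (q = 0.745). Of the 4 mRNA rises, only GR-RBP3 had a q under 0.01 in the authors' deposited table, beside 7.51% of all genes higher at that threshold (15.3% in either direction, 7.79% lower). Those shares are over all 33554 genes, including genes under 1 FPKM in both genotypes. The share among genes with at least 1 FPKM was not computed at that threshold.

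Set side by side, 9 of the 10 members lay below the median chromatin-bound change of all genes, with RZ-1B the exception, and 7 of 10 lay above the median mRNA ratio of -0.01. A median leaves as many genes above it as below. The 9 include the mutated RZ-1C, and GRP4 and GR-RBP3 lay close to the median, at -0.08 and -0.05 from it. The median of the 10 was -0.16 in chromatin-bound RNA beside 0.27 over all genes tested, and 0.21 in mRNA beside -0.01 over genes with at least 1 FPKM in both genotypes. Chromatin-bound and mRNA libraries were made differently, so a level in one is not compared with a level in the other.

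**Figure D2:**
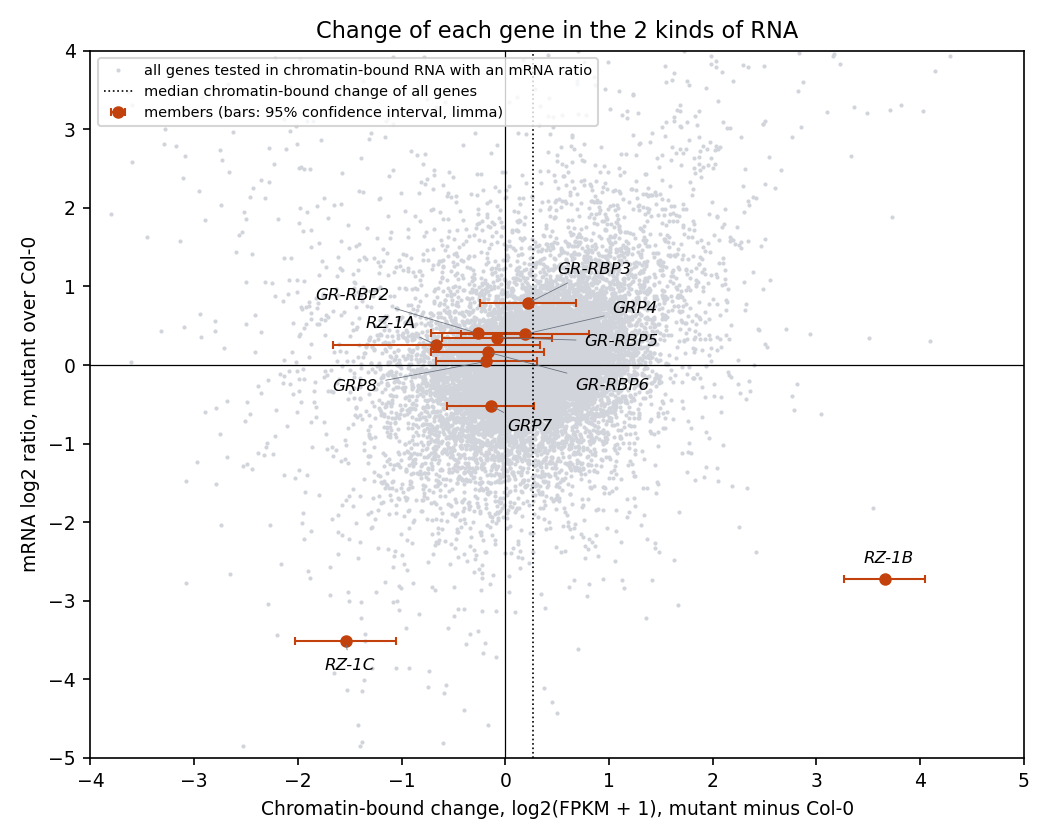
Chromatin-bound change on log2(FPKM + 1) (horizontal, mutant minus Col-0) against the log2 ratio of the mRNA values in the authors' deposited table (vertical, mutant over Col-0). Grey points are the genes tested that have an mRNA ratio, and genes with changes beyond the axes are not shown. Points with bars are the 10 members with limma's 95% confidence interval, and the dotted line is the median chromatin-bound change of 0.27. RZ-1B stands at lower right (3.66, -2.73), RZ-1C is at lower left (-1.54, -3.51), and the other 8 have intervals that span 0 horizontally.

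Levels are per length and can be ordered within the family. In the mutant's chromatin-bound columns RZ-1B came first, then GRP7, GR-RBP2, GRP8, GRP4, GR-RBP5 and GR-RBP3, each separated from its neighbour in both columns, while GR-RBP6, RZ-1C and RZ-1A overlapped one another at the low end, between 2.96 and 5.85 FPKM. In the wild type GRP7 was first and stood clear of GR-RBP2 and GRP8, which overlapped each other. GRP4, RZ-1C, GR-RBP5, RZ-1B, RZ-1A, GR-RBP3 and GR-RBP6 followed between 4.02 and 20.5 FPKM. In that lower group each gene's range overlapped that of the next in order of mean level, so their order is not resolved between neighbours. Farther apart, the RZ-1B range of 9.42 to 10.5 FPKM lay below that of RZ-1C and above that of GR-RBP3.

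RZ-1B supplied 43.0% and 43.5% of the family's summed chromatin-bound FPKM in the mutant replicates, against 4.36% and 4.71% in the wild type. Without RZ-1B the sum was 174 and 186 FPKM in the mutant and 231 and 190.5 FPKM in the wild type. The mutant columns were thus lower, by little for wild-type replicate 2. That sum still holds the mutated RZ-1C, at 4.59 and 4.27 FPKM in the mutant and 16.7 and 13.1 FPKM in the wild type. A sum without both mutated genes was not computed, so the rest of the family is not shown to be lower. In mRNA GRP7 and GRP8 held most of the sum. From the authors' deposited table, GRP7 made up 49.6% of the family's mRNA in the mutant and 60.4% in the wild type, and GRP8 made up 31.8% in the mutant and 26.3% in the wild type. In mutant mRNA the lowest members were RZ-1B and RZ-1C, which ranked 10 and 9 of the 10, whereas in wild-type mRNA they ranked 9 and 6.

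Ratios within a column depend little on how that column was scaled. With 1 FPKM added to each gene, RZ-1B to RZ-1C was 23.7 and 27.3 in the mutant's chromatin-bound columns, against 0.652 and 0.738 in the wild type's. The mRNA ratio of this pair from the authors' deposited table was 0.874 in the mutant and 0.497 in the wild type, so RZ-1B outweighed RZ-1C only in the mutant's chromatin-bound RNA among these 4 kinds of sample. GR-RBP2 to GRP4 was 1.66 and 1.54 in the mutant and 1.94 and 2.48 in the wild type in chromatin-bound RNA, lower in both mutant columns. In mRNA that ratio was nearly the same in both genotypes, 2.95 in the mutant and 2.92 in the wild type by the authors' deposited table. GR-RBP3 to GR-RBP5 overlapped in chromatin-bound RNA, at 0.648 and 0.764 in the mutant and 0.458 and 0.714 in the wild type. No test was run on these ratios.

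**Figure D3:**
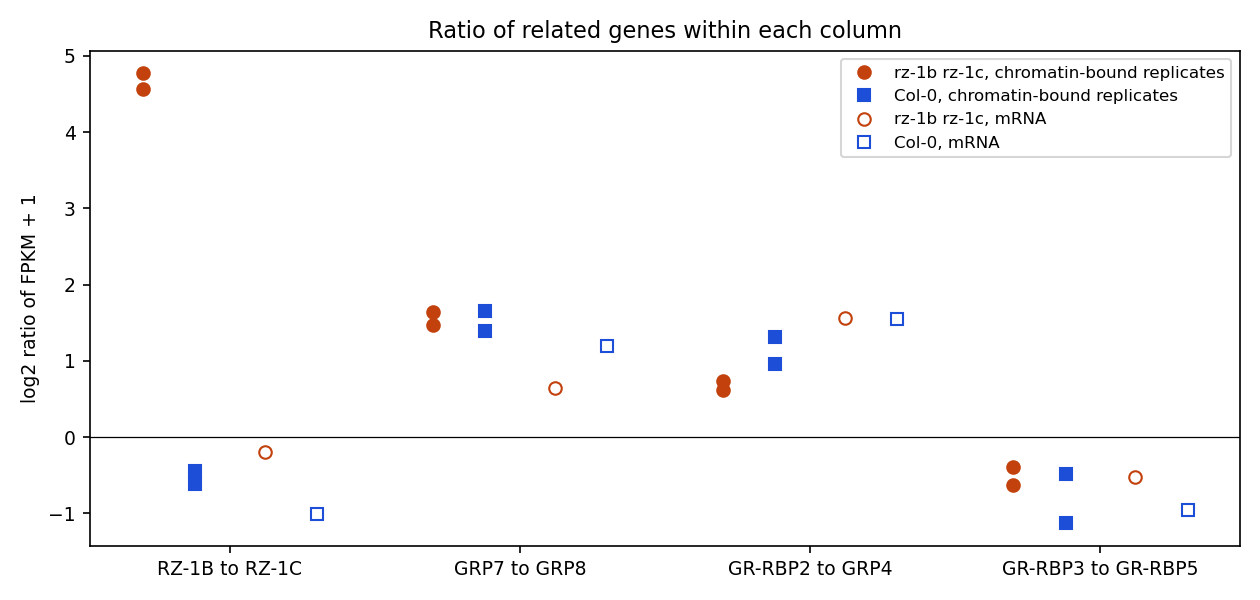
Log2 ratio of FPKM + 1 for 4 pairs of related genes. Filled symbols are the 2 chromatin-bound replicates of each genotype and open symbols the single mRNA value of the authors' deposited table, with circles for rz-1b rz-1c left of squares for Col-0. RZ-1B to RZ-1C lies at 4.57 and 4.77 in the mutant's chromatin-bound columns and at -0.62 and -0.44 in the wild type's, while GRP7 to GRP8 overlaps there.

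The genes beside the mutated loci were read in the same fit. AT1G60640, next to RZ-1B, was the one neighbour called in chromatin-bound RNA, where 17.4% of all genes tested were called. It read 14.7 and 9.33 FPKM in the mutant against 5.83 and 4.64 FPKM in the wild type (log2 change 1.04, SE 0.26, limma adjusted p = 0.0358), with 33.6 FPKM in mutant mRNA and 17.2 FPKM in wild-type mRNA in the authors' deposited table (q = 0.000329). This call was lost after either rescaling, without the filter, and without wild-type replicate 2 or either mutant replicate, with adjusted p between 0.0599 and 0.295 in those fits and a range of 0.00932 to 0.295 over all alternatives. On the other side CB5LP, a cytochrome b5-like gene that overlaps RZ-1B in the annotation, read 4.47 and 4.18 FPKM in the mutant and 5.44 and 2.32 FPKM in the wild type (log2 change 0.20, limma adjusted p = 0.687). Its mRNA was 21.7 FPKM in the mutant and 31.0 FPKM in the wild type in the authors' deposited table (q = 0.0256). Next came AT1G60670, at 17.7 and 16.0 FPKM in the mutant and 13.7 and 13.3 FPKM in the wild type, and on the far side of AT1G60640 came AT1G60630, at 1.81 and 1.72 FPKM in the mutant against 1.22 and 1.67 FPKM in the wild type. Neither was called.

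Around RZ-1C limma called 0 of the 4 neighbours tested, where 17.4% of all genes tested were called. Only 4 genes cannot be set apart from that share. By limma 1 of these 4 had an unadjusted p under 0.05, beside 7046 of all 19694 genes tested. KTF1, a factor of RNA-directed DNA methylation, read 13.6 and 13.7 FPKM in the mutant and 9.61 and 10.7 FPKM in the wild type (log2 change 0.40, limma adjusted p = 0.159). AT5G04320 read 7.73 and 7.25 FPKM in the mutant and 4.39 and 4.89 FPKM in the wild type (log2 change 0.59, limma adjusted p = 0.0838), and AT5G04270 and AT5G04310 had log2 changes of 0.01 and -0.03. In mRNA the log2 ratios of these 4 lay between -0.09 and 0.08 in the authors' deposited table, none with a q under 0.05. Among genes with at least 1 FPKM in either genotype 35.0% had such a q. Of the other neighbours of both loci, RALFL6 and AT5G04267 were listed at 0 in every column, the microRNA gene MIR172b was at 0.357 FPKM in wild-type replicate 1 and listed at 0 elsewhere, and AT1G08333 was not analysed here.

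**Figure D4:**
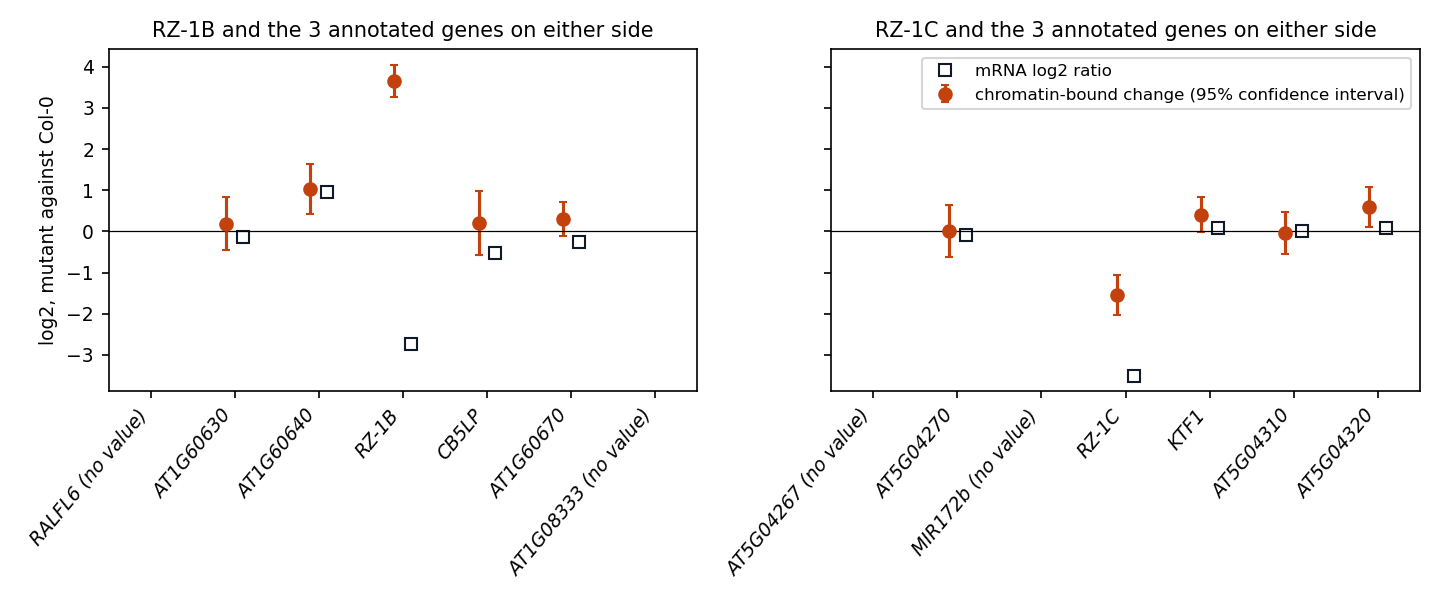
Log2 change of RZ-1B (left) and RZ-1C (right) and of the 3 annotated genes on either side, in annotated order. Filled circles with bars are chromatin-bound changes with limma's 95% confidence interval and open squares are mRNA log2 ratios from the authors' deposited table. The opposite directions at RZ-1B (3.66 and -2.73) are not seen at this size in the genes beside it. AT1G60640 has 1.04 and 0.97. CB5LP (0.20 and -0.52), AT1G60670 (0.29 and -0.27) and AT1G60630 (0.18 and -0.14) have the signs of RZ-1B, with chromatin-bound intervals that span 0.

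The genes most like RZ-1B were still some way off. Over the 2 changes, chromatin-bound and mRNA, the closest of 18511 other genes was the root iron transporter IRT1, at a distance of 0.92 log2 units. That distance depends on the 1 FPKM added. With 0.1 FPKM added, the chromatin-bound log2 change was 6.03 for IRT1 and 3.77 for RZ-1B. IRT1 passed the filter through the mutant columns. IRT1 read 9.83 and 14.7 FPKM in the mutant's chromatin-bound columns against 0.243 and 0 in the wild type's, with 2.47 FPKM in mutant mRNA and 8.71 FPKM in wild-type mRNA in the authors' deposited table (q = 0.000620). IRT1 is also one of the 3 root markers, of which the other 2 summed to 5.27 and 4.38 FPKM in the mutant's chromatin-bound columns and 8.99 and 7.09 FPKM in the wild type's, with 1 called lower. Their part in this was not tested. The next were AT5G25750, AT4G05070, AT5G35110 and the cold-response factor gene CBF2, at distances of 1.55 to 2.02. CBF2 read 25.6 and 74.8 FPKM in the mutant and 12.7 and 13.6 FPKM in the wild type (log2 change 1.66, limma adjusted p = 0.0407, between 0.00495 and 0.172 in the alternatives, so the call was lost in some), with mRNA of 1.79 FPKM in the mutant and 14.8 FPKM in the wild type in the authors' deposited table (q = 0.000329). AT5G25750 and AT5G35110 were listed at 0 in both wild-type columns and passed the filter through the mutant, and neither was called in mRNA in the authors' deposited table, while AT4G05070, not called in chromatin-bound RNA, was listed at 0 in wild-type replicate 1 and at 21.1 FPKM in replicate 2.

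RZ-1C had closer company. AT2G05540 lay 0.18 log2 units away, with 4.56 and 4.72 FPKM in the mutant against 14.3 and 12.6 FPKM in the wild type in chromatin-bound RNA (limma adjusted p = 0.00614), and 17.6 FPKM in mutant mRNA against 201 FPKM in wild-type mRNA in the authors' deposited table. AT3G15450 lay 0.21 away, at 65.0 and 44.6 FPKM in the mutant against 138 and 141 FPKM in the wild type (limma adjusted p = 0.00839). The AT2G05540 call was lost without either mutant replicate (limma adjusted p = 0.0794 and 0.0859) and that of AT3G15450 without mutant replicate 2 (0.0845). The other 3, AT3G25240, DR4 and the ferric reductase gene FRO6, lay between 0.33 and 0.43 away. In chromatin-bound RNA AT3G25240 passed (limma adjusted p = 0.0333), but not without the filter (0.0572) or without either mutant replicate. AT3G25240 read 0.342 and 0.272 FPKM in the mutant against 1.69 and 3.35 FPKM in the wild type. It thus lay at low values and passed the filter through the wild type. FRO6 missed (limma adjusted p = 0.0513) and passed with the 5 FPKM filter, after either rescaling, with the block and without wild-type replicate 2 (0.00759 to 0.0387). DR4 missed (limma adjusted p = 0.0989) and passed with the block (0.0211) and without wild-type replicate 2 (0.00214). GRP7, with its small changes, had many neighbours, the first 5 being AT1G14390, MRLK, AT1G32220, AT2G40230 and AT2G35680 at distances of 0.01 to 0.02.

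Other families were read from gene lists for comparison. Of 4 cold shock domain genes, whose proteins also carry glycine-rich stretches and zinc knuckles, 0 were called in chromatin-bound RNA by limma and 2 were higher in mRNA in the authors' deposited table. Of 8 organelle RNA editing factors, which act in the same process as GR-RBP3 and GR-RBP5, 0 were called in chromatin-bound RNA and 2 were higher in mRNA in the authors' deposited table. Of 6 chloroplast ribonucleoproteins these counts were 0 and 3. After median-of-ratios rescaling 1 cold shock domain gene was called lower in chromatin-bound RNA, and without wild-type replicate 1 or with the replicate block 1 editing factor was called higher there. In mRNA 0 of these genes were lower at a q under 0.05 in the authors' deposited table. Over all genes tested, 17.4% were called in chromatin-bound RNA (13.2% higher and 4.24% lower). Among genes with at least 1 FPKM of mRNA in either genotype, 17.1% were higher and 17.9% lower. With 4 to 8 genes per list, 0 calls cannot be set apart from these shares.

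Among 19 other proteins with RNA recognition motifs, 5 rose and 14 did not pass in chromatin-bound RNA, where 13.2% of all genes tested were higher. In mRNA 3 were higher in the authors' deposited table, beside 17.1% of genes with at least 1 FPKM in either genotype. The median chromatin-bound change of the 19 was 0.41, beside 0.27 over all genes. The largest rises were in the UBA2 group, named as partners of the oligouridylate-binding protein UBP1. AT3G15010 read 165.0 and 164 FPKM in the mutant against 69.6 and 48.4 FPKM in the wild type (log2 change 1.49, limma adjusted p = 0.00604), and AT2G41060 read 73.1 and 53.7 FPKM in the mutant against 30.6 and 28.4 FPKM in the wild type (log2 change 1.06, limma adjusted p = 0.0153). After either rescaling 3 of the 19 were called, and with either mutant replicate left out 0 were.

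The 4 cell wall glycine-rich protein genes, whose proteins are glycine-rich without an RNA recognition motif, gave another pattern. In chromatin-bound RNA 3 fell, where 4.24% of all genes tested were lower. In mRNA 2 were higher and 1 lower in the authors' deposited table. There 17.1% were higher and 17.9% lower among genes with at least 1 FPKM in either genotype. GRP5 read 3.78 and 4.19 FPKM in the mutant against 12.7 and 13.3 FPKM in the wild type (log2 change -1.50, limma adjusted p = 0.00477). GRP3S read 81.1 and 83.9 FPKM in the mutant against 238 and 194 FPKM in the wild type (log2 change -1.37, limma adjusted p = 0.00486), with mRNA of 1748 FPKM in the mutant and 879 FPKM in the wild type in the authors' deposited table (q = 0.000329). Leaving out either mutant replicate left 0 of these 4 genes called. GRP3S belonged to 220 genes (1.19% of those tested in both kinds of RNA) called lower in chromatin-bound RNA and higher in mRNA, the reverse of RZ-1B.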

How the data were processed

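The authors deposited chromatin-bound FPKM in 1 table per genotype, with 2 replicate columns for the 4 libraries per genotype in the labels, and an mRNA table with 1 value per genotype, taken as FPKM. The q-values of that table are adjusted p-values by the authors, per the file headers. Tools named in the submitters' processing notes, without their roles, are Cuffdiff 2.2.1, Cufflinks, TopHat2 2.1.1, StringTie 1.3.4d and HISAT2 2.0.5, with the TAIR10 genome. Per the labels' protocols, chromatin-bound RNA was depleted of rRNA and polyadenylated RNA. The iCLIP libraries, and 1 further column identical to mutant replicate 2, were not used.

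limma 3.58.1 (R 4.3.3, trend on mean level) tested chromatin-bound log2(FPKM + 1) over 19694 genes averaging 1 FPKM or more, 2 columns against 2, with Benjamini-Hochberg adjustment and a threshold of 0.05. This scale understates the change of low genes. mRNA log2 ratios were computed from the deposited values, and mRNA calls are the authors' q under 0.05. The fit was tested on simulated data. Alternatives were other pseudocounts, filters and scalings, the replicate number as a block, and each replicate left out.

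Named genes are the members, the 5 genes nearest to RZ-1B, RZ-1C and GRP7 by Euclidean distance over both changes, 3 neighbours on either side of RZ-1B and RZ-1C, and up to 2 called genes per list. The members and lists were chosen with earlier results of these data known. Gene names are from RefSeq's TAIR10.1 table, which matched 32835 identifiers. Protein sequences were not analysed here.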

Additional observations from a re-analysis of the deposited data

Results flagged for a closer look

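RZ-1B and GR-RBP2 were picked out because both chromatin-bound mutant columns moved one way from both wild-type columns while the mRNA value moved the other way. The first condition alone, columns without overlap in either direction, held for 65.2% of all genes tested. For RZ-1B the chromatin-bound log2 change was 3.66 and the mRNA log2 ratio was -2.73 in the authors' deposited table. For GR-RBP2 the chromatin-bound log2 change was -0.27, without a call, and -0.07 without wild-type replicate 1. Its mRNA log2 ratio was 0.40 in the authors' deposited table. The difference between the 2 kinds of RNA was not tested for either gene, since mRNA has 1 value per genotype.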

How the results depend on the processing

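RZ-1B was called higher in every fit except those that left out a mutant replicate with the tested genes held fixed, an alternative chosen after seeing the data (limma adjusted p = 0.0637 and 0.0700), where limma called 0 of 19694 genes and 3739 and 3942 had an unadjusted p under 0.05. With each replicate left out and the filter reapplied, limma called 227 to 4988 of all genes, 113 to 4108 higher and 114 to 880 lower, and 1 to 3 members, 0 to 2 of them lower. With the genes held fixed, calls were 4872 without wild-type replicate 1 (3989 higher) and 2122 without wild-type replicate 2 (1477 higher). Calls numbered 1931 without a filter, 1418 higher and 513 lower. Median-of-ratios rescaling gave 1315 higher and 1531 lower, and quantile normalization 1390 higher and 1458 lower. At a q under 0.01 the authors' deposited table has 4 members called, 1 of them higher, beside 5136 of all genes (2521 higher and 2615 lower). With the replicate block 4520 genes were called, the same 2 members among them. Same-numbered replicates did not deviate together (r = 0.014 across genes), so they were not taken as pairs.

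Uncalled changes near 0 took the other sign in some fits, and the cause was not tested. After median-of-ratios and quantile scaling these were GRP4 (-0.076 and -0.019), GR-RBP3 (-0.030 and -0.046), CB5LP (-0.015 and -0.092) and AT5G04270 (-0.21 and -0.29), and after quantile scaling AT1G60630 (-0.12). With replicates left out, the change lay between -0.42 and 0.056 for GRP8, -0.19 and 0.57 for GRP4, -0.33 and 0.17 for GR-RBP5, and -0.37 and 0.029 for GR-RBP6. For genes that are not members it lay between -0.79 and 0.54 for AT1G32220, -0.53 and 0.25 for AT2G40230, -0.27 and 0.68 for CB5LP, -0.25 and 0.27 for AT5G04270, and -0.16 and 0.090 for AT5G04310. GR-RBP5 was 0.010 without mutant replicate 2, where AT5G04270 was -0.14, and AT5G04310 was 0.085 without wild-type replicate 2. With 2 columns per genotype, unknown read totals and mRNA calls that cannot be recomputed, smaller changes of the members may be missed.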
